A study of Mus musculus with 12 samples.

Results

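The antiviral interferon-stimulated genes are the genes whose products bind, cut, trap or modify viral RNA and protein once a cell has sensed interferon. The 39 genes examined here were listed by name for that role, and their probes were found on the array by transcript accession or gene name. The brightest probe stood for a gene with several. Of the 39 genes, 34 were matched to a probe, among 32301 genes or transcripts on the array. *Mx1*, *Mx2*, *Dtx3l*, *Ddx60* and *Rnf213* were not matched and were not analysed here. All 34 matched genes gave a signal well above background on all 12 arrays, so none of the filters on dim probes removed one.

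Type I interferon, bound by its receptor IFNAR, activates the kinases JAK1 and TYK2, and the signal ends at a short element in the promoters of antiviral genes. Macrophages make IFNβ within hours of sensing lipopolysaccharide (LPS), and IFNγ induces an overlapping set of genes. Without any infection, macrophages keep many of these genes at a low tonic level, which depends on the small amounts of interferon that cells release at rest.

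RNA was measured in bone marrow-derived macrophages (BMDMs) of C57BL/6 mice (C57BL6/J in the study's methods) aged 8 weeks, grown from bone marrow with M-CSF for 7 days. Mice were wild-type (WT) or KpCKO, which carry Keap1 flox/flox and *LysM*-Cre, so that *Keap1*, the adaptor gene that keeps the transcription factor Nrf2 low, is deleted in myeloid cells. BMDMs of each genotype were left untreated (Con), stimulated with LPS and IFNγ (M1), or stimulated with IL-4 (M2), and the stimuli lasted 6 h. Each of the 6 groups held 2 arrays, 1 from culture 1 (male mice) and 1 from culture 2 (female mice). Each culture was started from 1 WT and 1 KpCKO mouse. The sex of the mice and the culture therefore cannot be told apart. The study also uses the floxed allele without Cre as a *Keap1* knockdown, so cells outside the myeloid lineage of KpCKO mice may carry less *Keap1* as well. Whether WT mice carried *LysM*-Cre is not given in the sources used here.

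A level is given here as the log2 of the background-subtracted intensity less the log2 of the 75th percentile of its array, so that 0 stands for the intensity at that percentile. Levels of different genes come from different probes and are not ranked against each other. The 75th percentile lay between 548 and 1166 intensity units, and was lowest on the WT M1 arrays (757 and 548). The 4 arrays of a stimulus shared 1 of 3 slides, so that stimulus and slide cannot be told apart, whereas the genotypes were compared within a slide. *Keap1* was lower in KpCKO by 1.46, 1.71 and 1.81 on the log2 scale in Con, M1 and M2 (limma, adjusted p = 0.0336, 0.00769 and 0.0161). The Nrf2 target *Nqo1* was higher by 3.23, 3.50 and 3.52. Of 6 macrophage markers 5 had a probe, and these were above background on all 12 arrays. Their summed intensity, relative to the 75th percentile, was 378 to 424 in WT Con and 314 to 354 in KpCKO Con. It was 548 to 746 in WT M1 and 439 to 503 in KpCKO M1, and 386 to 445 in WT M2 and 348 to 395 in KpCKO M2. Of 7 neutrophil markers measured, 6 were above background in WT Con and KpCKO Con, and their summed intensity ran from 7.36 to 16.5 and from 5.11 to 16.1. In M1 it ran from 9.76 to 13.0 in WT and 6.82 to 13.0 in KpCKO, and in M2 from 7.20 to 16.3 in WT and 3.15 to 14 in KpCKO, with *Elane* above background on no array. Of 3 markers of plasmacytoid dendritic cells, a strong source of interferon, the summed intensity was 0.0727 to 0.115 in WT Con and 0.112 to 0.174 in KpCKO Con, 0.268 to 0.328 in WT M1 and 0.276 to 0.278 in KpCKO M1. *Ms4a1* of B cells and *Cd3d* of T cells were above background on no array. The part of these markers in the results was not tested. In bulk RNA, fewer cells of a type and less RNA per cell cannot be told apart.

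The promoters of 6 members are printed because their sequence holds the letters of the interferon-stimulated response element and because all 6 genes rose with LPS and IFNγ in both genotypes. With IL-4 they differed, from a fall of *Ifit3* in both genotypes to a mean difference of −0.005 for *Bst2* in WT. Promoter windows of RefSeq on GRCm38.p6, which run from 250 bases before the transcription start to 50 bases after it, were available for 29 of the 39 genes. The motif searched was GAAANNGAAA on either strand, with overlapping matches counted separately. It was found in 12 of these 29 genes (41.4%) and in 3.99% of the 27025 genes of the table, or 3.44% of its 32851 windows. The 160 bases before the start of each gene read 5′ to 3′ as follows, with the motif in capitals, and 1.72% of all windows hold the motif in that stretch.
Isg15: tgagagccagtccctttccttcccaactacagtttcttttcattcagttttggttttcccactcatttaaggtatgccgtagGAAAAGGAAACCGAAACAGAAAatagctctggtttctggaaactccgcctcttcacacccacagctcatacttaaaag
Ifit1: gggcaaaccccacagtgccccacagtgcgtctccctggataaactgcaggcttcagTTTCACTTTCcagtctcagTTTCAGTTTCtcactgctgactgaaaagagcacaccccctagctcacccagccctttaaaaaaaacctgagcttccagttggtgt
Ifit3: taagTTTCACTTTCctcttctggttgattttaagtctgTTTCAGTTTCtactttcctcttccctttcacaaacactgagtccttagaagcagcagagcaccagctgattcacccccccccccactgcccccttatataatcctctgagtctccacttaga
Rsad2: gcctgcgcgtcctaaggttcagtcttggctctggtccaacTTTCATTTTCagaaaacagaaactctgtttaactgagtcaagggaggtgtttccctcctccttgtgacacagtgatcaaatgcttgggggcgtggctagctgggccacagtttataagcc
Oas3: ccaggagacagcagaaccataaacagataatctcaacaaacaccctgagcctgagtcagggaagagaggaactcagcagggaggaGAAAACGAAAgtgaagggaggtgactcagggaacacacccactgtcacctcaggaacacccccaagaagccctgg
Bst2: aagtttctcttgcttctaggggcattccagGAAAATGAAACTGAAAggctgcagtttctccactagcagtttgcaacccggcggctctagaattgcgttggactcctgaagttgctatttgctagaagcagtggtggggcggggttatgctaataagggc
*Isg15* lies on the minus strand at chr4:156200819-156200978, and its 3 matches overlap, from −78 to −57 relative to the start. *Ifit1* (plus strand, chr19:34640729-34640888) and *Ifit3* (plus strand, chr19:34583369-34583528) lie on the same chromosome, and each holds 2 matches on the opposite strand. *Rsad2* (minus strand, chr12:26456453-26456612) and *Oas3* (minus strand, chr5:120777660-120777819) hold 1 match each. *Bst2* (minus strand, chr8:71537473-71537632) holds 2 that overlap. The matches are a description of these letters and not a measurement of binding.

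The first question was how far LPS and IFNγ raised these genes in each genotype. In WT BMDMs, 33 of the 34 genes rose, with a median log2 difference of 3.64 and a range from 0.39 to 9.18, and 34.5% of all genes tested rose. The same count, 33 of 34, rose in KpCKO BMDMs, with a median of 3.47, where 24.8% of all genes rose. *Trim25*, which encodes a ubiquitin ligase of the RIG-I pathway, was the gene that did not pass in either genotype on the probe used (limma, adjusted p = 0.297 in WT and 0.783 in KpCKO). The largest rise was that of *Oasl1*, by 9.18 ± 0.37 (SE) on the log2 scale in WT and 10.3 ± 0.37 in KpCKO, followed by *Zbp1*, by 6.81 ± 0.28 and 7.85 ± 0.28. In each genotype 32 of 34 genes were over 2-fold higher in M1 than in Con in both cultures, the others being *Trim25* and *Epsti1*. Leaving out any 1 of the 4 arrays compared put the median between 3.55 and 3.77 in WT and between 3.12 and 3.99 in KpCKO. The unpaired t-test of the study's methods called 32 genes in WT but 18 in KpCKO before adjustment, against 44.0% and 29.3% of all genes. After adjustment it called 14 and 0, against 13.2% and 0% of all genes.

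**Figure D1:**
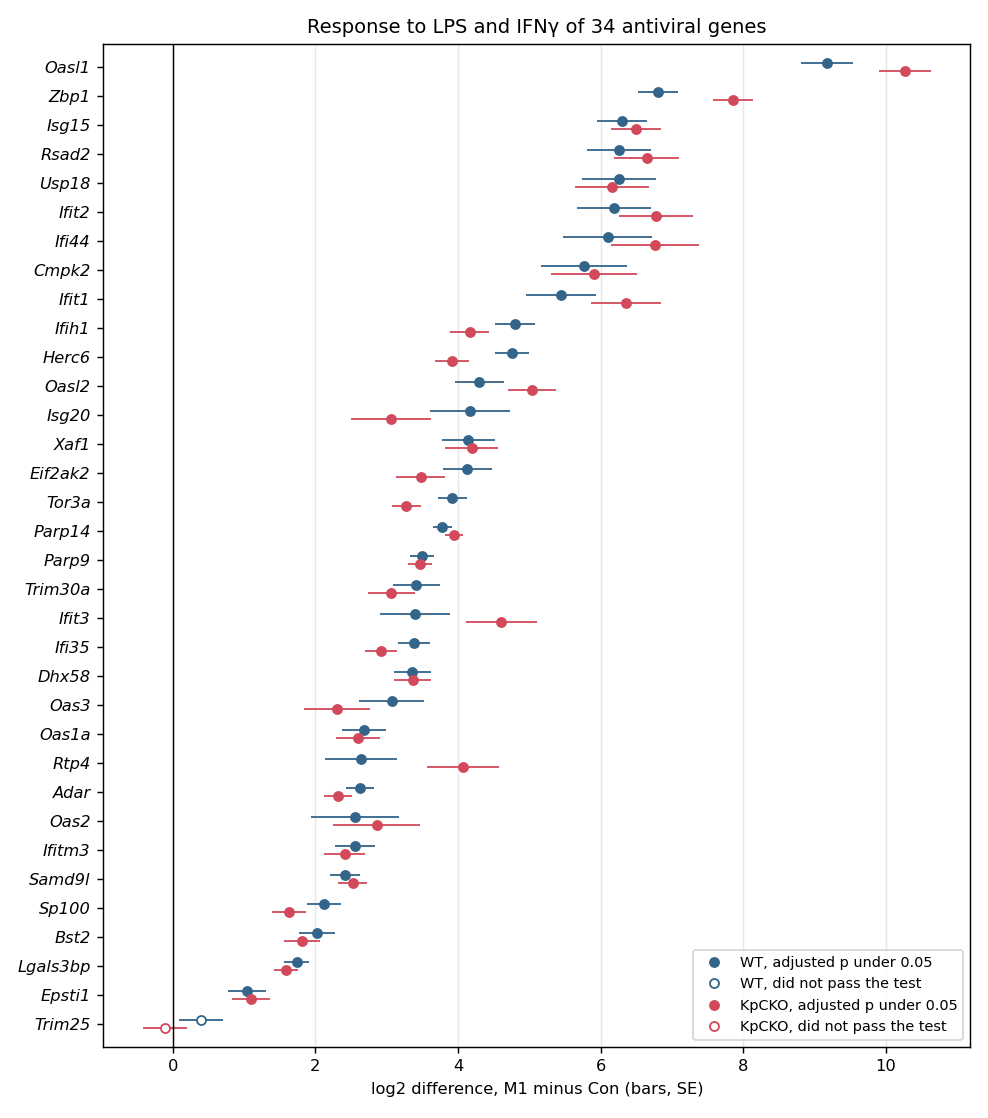
Log2 difference between M1 and Con (x axis) for each of the 34 antiviral genes (y axis, ordered by the difference in WT), as limma's estimate over 2 cultures with its SE (bars). Filled points passed the test at an adjusted p of 0.05, which holds for 33 genes in WT (blue) and 33 in KpCKO (red), and *Trim25* is open in both.

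The second question was what IL-4 did to the tonic level. In WT BMDMs, 9 of the 34 genes fell, namely *Ifit1*, *Ifit2*, *Ifit3*, *Oasl1*, *Oasl2*, *Rsad2*, *Dhx58*, *Parp14* and *Trim30a*, and 1 rose, *Tor3a*. The shares of all genes were 8.2% that fell and 8.62% that rose. *Ifit3* fell by 3.27 ± 0.49 (9.62-fold), *Ifit1* by 2.96 ± 0.49 (7.77-fold) and *Rsad2* by 2.63 ± 0.45 (6.18-fold) on the log2 scale. The median over the 34 genes was −0.73, and 26 of them were lower in M2 than in Con in both cultures, as were 41.1% of all genes. In KpCKO BMDMs, *Ifit3* fell, by 2.22 ± 0.49, while *Tor3a*, *Zbp1* and *Usp18* rose, by 1.34 ± 0.20, 1.83 ± 0.28 and 2.16 ± 0.52. The shares of all genes were 4.54% that fell and 5.68% that rose. Here the median was −0.30, and 18 of 34 genes were lower in both cultures, as were 36.8% of all genes. The median in WT was −0.52 without the WT Con array of culture 1 and −0.83 without that of culture 2. It was −0.95 without the WT M2 array of culture 1 and −0.49 without that of culture 2. Between 23 and 32 genes had a lower mean than Con with 1 array left out. The 10 genes called in WT became 2 without culture in the model, where 7.66% of all genes were called. In KpCKO the median ran from −0.38 without the M2 array of culture 1 to −0.11 without that of culture 2. In both genotypes the number called moved with 1 array left out, as did that over all genes.

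**Figure D2:**
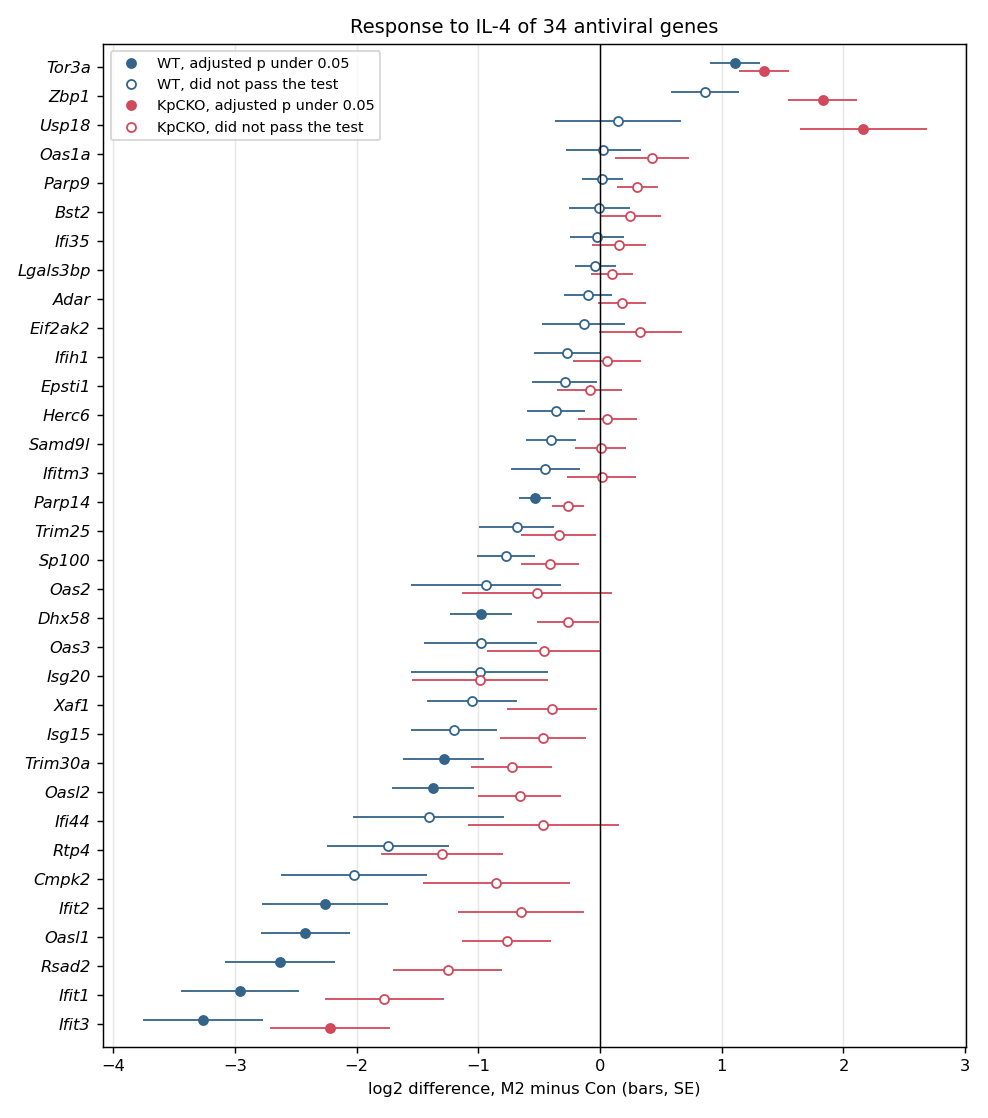
Log2 difference between M2 and Con (x axis) for each of the 34 antiviral genes (y axis, ordered by the difference in WT), as limma's estimate over 2 cultures with its SE (bars). Filled points passed the test at an adjusted p of 0.05. *Ifit3*, *Ifit1*, *Rsad2*, *Oasl1* and *Ifit2* lie farthest to the left in WT (blue), and *Usp18* is near 0 in WT but at 2.16 in KpCKO (red).

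The third question was how the genotypes differed under each stimulus. In Con, all 34 genes had a lower mean in KpCKO than in WT, with a median log2 difference of −1.10 (2.14-fold), and 33 of 34 were lower in both cultures, as were 32.2% of all genes. The test called 5 of them, *Rtp4* (−2.88 ± 0.50, adjusted p = 0.0408), *Ifit3* (−2.83 ± 0.49, 0.0408), *Oasl1* (−2.57 ± 0.37, 0.0198), *Zbp1* (−1.83 ± 0.28, 0.028) and *Oasl2* (−1.82 ± 0.34, 0.0493), where 0.827% of all genes were called lower. In M1, all 34 genes were lower in KpCKO in both cultures, as were 42.8% of all genes, with a median of −1.25. Of these, 18 passed the test, where 8.58% of all genes were called lower. In M2, 31 of 34 genes had a lower mean in KpCKO, with a median of −0.48, and 26 were lower in both cultures, against 31.4% of all genes. The test called 0 genes, where 0.644% of all genes were called lower (limma, with 15 genes at an unadjusted p under 0.05). None of the 34 genes was called higher in KpCKO under any stimulus. Over all genes, 312 of 22367 were called higher in Con, 1660 of 22354 in M1 and 287 of 22365 in M2.

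The counts of the genotype comparison rested on single arrays, while in Con and M1 nearly all members stayed lower whichever array was left out. Without the WT Con array of either culture the 5 calls in Con became 0. They became 0 without the KpCKO Con array of culture 1 and 2 without that of culture 2, and at least 33 of 34 genes stayed lower. The 18 calls in M1 became 1 without the WT M1 array of culture 1, 0 without that of culture 2, 0 when the KpCKO M1 array of culture 1 was left out and 27 without that of culture 2, and all 34 genes stayed lower each time. In M2 the median of −0.48 moved to −0.24, with 25 genes lower, without the WT M2 array of culture 1, and to −0.80, with 34 lower, without that of culture 2. The 2 KpCKO arrays of M1 stood apart from each other in these members. Over all genes tested they correlated at 0.986, and the 2 WT arrays of M1 at 0.985. The gap was larger in culture 1 than in culture 2 for 33 of 34 genes in M1, with medians of −1.60 and −0.78, and for 31 of 34 genes in Con, with medians of −1.27 and −0.85. Without culture in the model no gene was called in Con or in M1, with lowest adjusted p values of 0.0633 and 0.0511, and quantile normalization left 7 genes called in Con and 3 in M1.

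**Figure D3:**
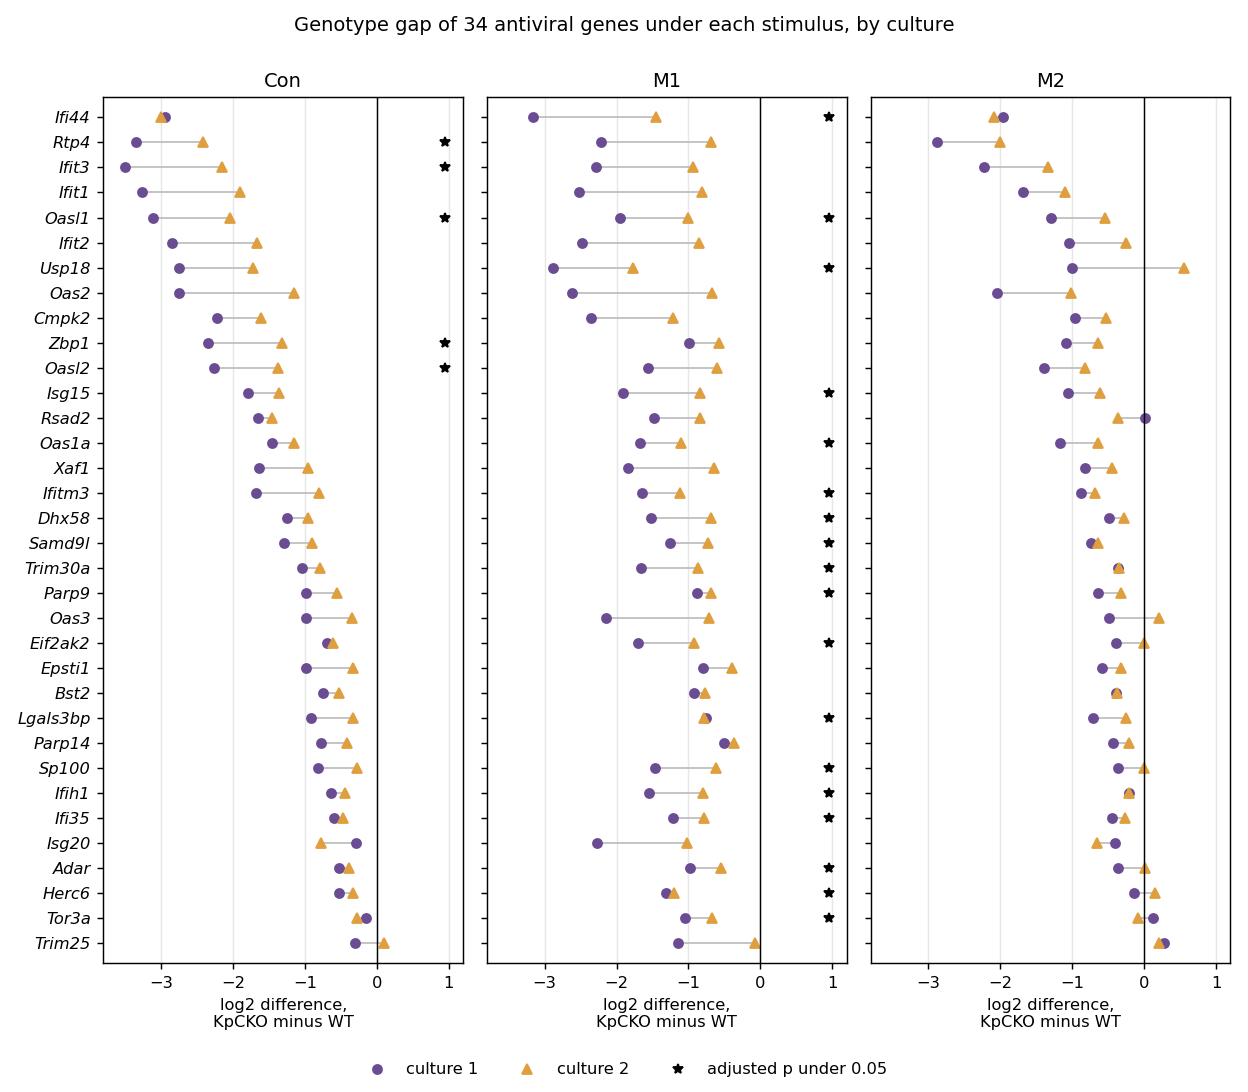
Log2 difference between KpCKO and WT (x axis) in culture 1 (circles) and culture 2 (triangles) for each of the 34 antiviral genes (y axis, ordered by the difference in Con), with Con, M1 and M2 in separate panels and a star where limma's adjusted p was under 0.05. Nearly all points lie left of 0 in Con and M1, culture 1 lies farther left than culture 2 for 33 of 34 genes in M1, and the points of M2 lie closer to 0.

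Whether the genotypes differed in the response itself was tested as the difference of the differences. For M1 against Con, limma called 0 of 34 genes, with 2 at an unadjusted p under 0.05 and a lowest adjusted p of 0.273, and called 0.0716% of all genes. The median of this difference was −0.01, with 17 genes above 0 and 17 below, but single arrays and the scaling moved it. When the KpCKO array of culture 1 in M1 was left out, the median was 0.40 with 10 genes below 0, without that of culture 2 it was −0.53 with 27 below, and quantile normalization gave 0.32 with 10 below. *Zbp1* at 1.05 ± 0.40 and *Herc6* at −0.83 ± 0.34 had the smallest p values. For M2 against Con, limma again called 0 of 34 genes (3 at an unadjusted p under 0.05, 0.00894% of all genes called), but all 34 estimates were above 0 and 33 were above 0 in both cultures, as were 31.6% of all genes. The median was 0.45, and it ran from 0.18 without the WT M2 array of culture 2 to 0.80 without that of culture 1. Leaving out the WT Con array of culture 1 or the WT M2 array of culture 2 put 5 genes below 0. The largest on the probes used were *Usp18* at 2.01 ± 0.74, *Oasl1* at 1.65 ± 0.52 and *Ifit2* at 1.61 ± 0.74, the last at 2.62 on its second probe. These comparisons share the Con arrays with those of the gap in Con.

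The ISG15 system attaches a small ubiquitin-like protein to other proteins and takes it off again. *Isg15*, which encodes that protein, stood at 0.96 and 1.37 in WT Con (cultures 1 and 2) against −0.83 and 0.01 in KpCKO Con, and at 7.15 and 7.77 in WT M1 against 5.24 and 6.94 in KpCKO M1. After IL-4, *Isg15* was at −0.05 and −0.02 in WT and −1.11 and −0.64 in KpCKO. Both KpCKO arrays lay below both WT arrays under each stimulus. LPS and IFNγ raised *Isg15* 78.6-fold in WT (adjusted p = 1.62e-05) and 90.2-fold in KpCKO. The gap in M1 passed the test (2.59-fold, adjusted p = 0.0428), and the IL-4 difference in WT, −1.20 ± 0.35, did not (adjusted p = 0.0603). *Usp18*, which encodes the protease that removes ISG15 and restrains the interferon receptor, stood at −0.26 and 0.17 in WT Con against −3.01 and −1.55 in KpCKO Con, and at 5.52 and 6.90 in WT M1 against 2.63 and 5.13 in KpCKO M1. After IL-4, *Usp18* was at 0.01 and 0.20 in WT and −0.99 and 0.75 in KpCKO. The genotypes did not overlap in Con or M1 and overlapped in M2, where the KpCKO arrays lay on either side of the WT arrays. Its gap in M1, 5.02-fold, was the largest of the 34 genes on the probes used (adjusted p = 0.0305). *Herc6*, the main ISG15 ligase of the mouse, rose from −1.87 and −1.68 in WT Con to 2.56 and 3.38 in WT M1, and from −2.39 and −2.01 in KpCKO Con to 1.25 and 2.18 in KpCKO M1. Its gap in M1 was alike in both cultures, −1.31 and −1.20, and had the lowest adjusted p of the 34 genes (0.0193), while in M2 its mean difference was 0.00. *Trim25* ranged from 3.22 to 4.49 over the 12 arrays on the probe used. Its second probe, above background on all 12 arrays, differed by 1.27 between M1 and Con in WT and by 0.66 in KpCKO, and its gaps were −1.20 in Con, −1.82 in M1 and −0.67 in M2 against −0.10, −0.61 and 0.24 on the probe used, so that the probes of *Trim25* disagree.

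The 9 genes for RNA-binding and RNA-degrading proteins held 5 of the 9 members that fell with IL-4 in WT, where 8.2% of all genes fell. *Ifit3*, a member of the family that holds foreign RNA away from the ribosome, stood at 1.37 and 2.12 in WT Con against −2.13 and −0.03 in KpCKO Con, and at 4.61 and 5.67 in WT M1 against 2.33 and 4.73 in KpCKO M1. After IL-4, *Ifit3* was at −1.66 and −1.39 in WT and −3.88 and −2.72 in KpCKO. The WT M2 arrays lay within the range of the KpCKO Con arrays, and the WT and KpCKO arrays overlapped in M1 alone. *Ifit1*, which binds the ends of foreign RNA, stood at −0.66 and 0.05 in WT Con, −3.92 and −1.85 in KpCKO Con, −3.51 and −3.02 in WT M2 and −5.18 and −4.13 in KpCKO M2, and rose 43.5-fold in WT and 82.0-fold in KpCKO with LPS and IFNγ. Its gaps, −2.58 in Con and −1.67 in M1, did not pass the test (adjusted p = 0.0513 and 0.0604). *Ifit2* fell 4.78-fold with IL-4 in WT (adjusted p = 0.0294), from −1.27 and −0.34 to −3.19 and −2.93, and its KpCKO arrays in Con stood at −4.12 and −2.0. Whether the probes separate *Ifit3* from its near-identical neighbour was not tested.

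Among the oligoadenylate synthetases, whose product activates the nuclease RNase L, and their relatives, *Oasl1* had the largest rise in M1, the largest fall with IL-4 in WT and the largest gap in Con, while *Oas2* had the larger mean gap in M1 and M2. *Oasl1*, a relative without the enzyme's activity, stood at −2.48 and −1.90 in WT Con against −5.59 and −3.94 in KpCKO Con, and at 6.82 and 7.16 in WT M1 against 4.86 and 6.15 in KpCKO M1. After IL-4, *Oasl1* was at −4.64 and −4.58 in WT and −5.94 and −5.12 in KpCKO. It was lower in KpCKO by 2.57 ± 0.37 in Con and by 1.48 ± 0.37 in M1 (adjusted p = 0.0198 and 0.0393). The difference of −0.92 ± 0.37 in M2 did not pass (adjusted p = 0.32), and the genotypes did not overlap under any stimulus. *Oasl2* fell with IL-4 in WT from 2.30 and 2.65 to 1.0 and 1.21 (adjusted p = 0.0364), and in KpCKO Con it stood at 0.04 and 1.27. *Oas1a* differed by 0.03 ± 0.31 between M2 and Con in WT (2.95 and 3.07 in Con, 3.07 and 3.01 in M2) and was lower in KpCKO M1, at 3.64 and 4.97, than in WT M1, at 5.31 and 6.07 (adjusted p = 0.0298). *Oas2* and *Oas3* rose 5.89-fold and 8.39-fold in WT M1, and their gaps in M1, −1.65 ± 0.62 and −1.43 ± 0.46, did not pass the test. *Isg20*, an RNA exonuclease, rose 18.0-fold in WT and 8.32-fold in KpCKO, and its KpCKO M1 arrays stood at 0.58 and 3.02 against 2.84 and 4.04 in WT M1, so that the groups overlapped.

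**Figure D4:**
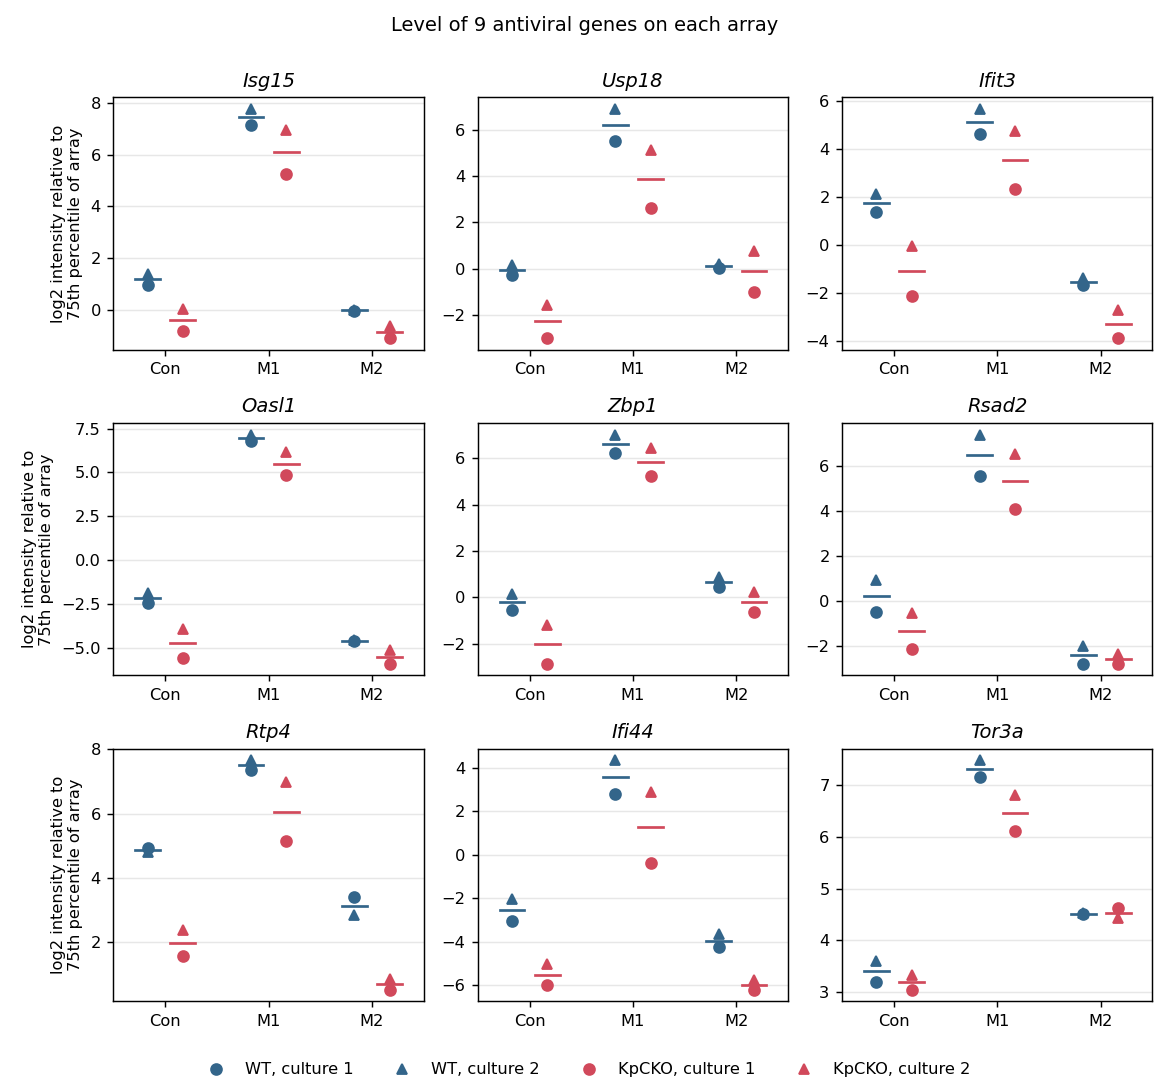
Level of 9 members on each of the 12 arrays (y axis, log2 intensity relative to the 75th percentile of the array; x axis, stimulus) in WT (blue) and KpCKO (red), with culture 1 as circles, culture 2 as triangles and the group mean as a line; the y axes differ between genes. *Isg15*, *Oasl1* and *Rtp4* have both KpCKO arrays below both WT arrays under each stimulus, *Ifit3* and *Rsad2* lie lower in M2 than in Con in WT, and *Tor3a* lies higher.

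The sensors of viral nucleic acid and the enzymes that act on double-stranded RNA numbered 5 with a probe. Of these, 4 were lower in KpCKO M1 by the test, as were 18 of the 34 members and 8.58% of all genes. *Zbp1*, which senses nucleic acid of the Z form and can start cell death, was the exception and had the largest gap of the 5 before stimulation. It stood at −0.52 and 0.15 in WT Con against −2.87 and −1.17 in KpCKO Con, and at 6.22 and 7.01 in WT M1 against 5.24 and 6.43 in KpCKO M1. After IL-4, *Zbp1* was at 0.47 and 0.88 in WT and −0.62 and 0.24 in KpCKO. The arrays of the genotypes overlapped in M1 and not in Con or M2. *Ifih1*, which encodes a helicase that senses long double-stranded RNA, stood at 5.37 and 6.26 in WT M1 and 3.82 and 5.47 in KpCKO M1 (2.26-fold lower, adjusted p = 0.035), and in M2 its gap was −0.21 in both cultures. *Dhx58*, which encodes a helicase of the same family without a signalling domain, was lower in KpCKO M1 by 2.14-fold (adjusted p = 0.0338) and fell with IL-4 in WT from 1.46 and 1.62 to 0.57 and 0.55 (adjusted p = 0.043). *Eif2ak2*, the kinase gene that stops translation on sensing double-stranded RNA, and *Adar*, the gene of an RNA adenosine deaminase, rose 17.5-fold and 6.15-fold in WT M1 and were lower in KpCKO M1 by 2.49-fold and 1.70-fold (adjusted p = 0.0447 and 0.0437). Their differences between M2 and Con lay between −0.13 and 0.33 in both genotypes, none past the test.

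Of the direct effectors, all 6 measured rose in M1 in both genotypes, where 34.5% of all genes rose in WT and 24.8% in KpCKO. All 6 lay lower in KpCKO in Con in both cultures, as did 33 of the 34 members and 32.2% of all genes. *Rsad2*, which encodes viperin, an enzyme that makes a chain-terminating nucleotide, stood at −0.48 and 0.92 in WT Con against −2.12 and −0.53 in KpCKO Con, and at 5.56 and 7.40 in WT M1 against 4.08 and 6.56 in KpCKO M1. After IL-4, *Rsad2* was at −2.81 and −2.01 in WT and −2.79 and −2.37 in KpCKO. Its 4 arrays of M2 were interleaved between the genotypes, with a mean difference of −0.17 ± 0.45, while the genotypes also overlapped in M1 and not in Con. *Cmpk2*, its neighbour in the genome and a nucleotide kinase, stood at −0.69 and −0.44 in WT Con and −2.31 and −2.87 in WT M2, a difference of −2.02 ± 0.60 that did not pass the test (adjusted p = 0.0635). A second probe of *Cmpk2*, above background on 11 arrays, differed between the genotypes by −3.42, −3.24 and −2.56 in Con, M1 and M2, where the brighter probe had −1.91, −1.78 and −0.75. *Rtp4*, an interferon-induced gene whose product assists the transport of receptors to the cell surface, stood at 4.93 and 4.80 in WT Con against 1.58 and 2.38 in KpCKO Con, and at 7.35 and 7.65 in WT M1 against 5.14 and 6.97 in KpCKO M1. After IL-4, *Rtp4* was at 3.40 and 2.85 in WT and 0.52 and 0.85 in KpCKO. Its KpCKO arrays lay below its WT arrays under each stimulus, by 7.38-fold in Con, 2.73-fold in M1 and 5.42-fold in M2 on average. The difference in Con passed the test and those in M1 and M2 did not (adjusted p = 0.0408, 0.0946 and 0.0753). *Ifitm3*, which blocks the fusion of virus with the endosome, and *Samd9l*, a growth-restraining antiviral gene, were lower in KpCKO M1 by 2.61-fold and 1.99-fold (adjusted p = 0.0245 and 0.0258). *Bst2*, whose product tethers budding virus to the cell, rose 4.06-fold in WT and 3.51-fold in KpCKO and had a gap in M1 of −0.85 ± 0.25 that did not pass (adjusted p = 0.0614).

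*Parp9* and *Parp14* encode members of the ADP-ribosyltransferase family. Both rose closely alike in the genotypes with LPS and IFNγ, *Parp9* by 3.49 ± 0.17 in WT and 3.47 ± 0.17 in KpCKO and *Parp14* by 3.78 ± 0.13 and 3.94 ± 0.13. *Parp9* was lower in KpCKO M1, at 3.63 and 4.17 against 4.51 and 4.85 in WT M1 (1.72-fold, adjusted p = 0.027). *Parp14* had the smallest gap of the 34 genes in M1, −0.43 ± 0.13 (adjusted p = 0.0683), and fell with IL-4 in WT from 4.13 and 4.46 to 3.51 and 4.02 (adjusted p = 0.0372), with the groups of arrays not overlapping.

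Among the remaining genes, *Ifi44* had the largest gap in Con on the probes used and *Tor3a* stood out in its response to IL-4. *Ifi44* stood at −3.06 and −2.03 in WT Con against −6.00 and −5.02 in KpCKO Con, and at 2.78 and 4.33 in WT M1 against −0.37 and 2.88 in KpCKO M1. After IL-4, *Ifi44* was at −4.24 and −3.66 in WT and −6.21 and −5.74 in KpCKO. Its gap of −2.97 ± 0.62 in Con did not pass the test (limma, adjusted p = 0.0722) and that of −2.30 ± 0.62 in M1 did (adjusted p = 0.0486). The groups overlapped in M1 between cultures, while KpCKO was lower than WT within each culture. *Tor3a*, which encodes an ATPase of the torsin family, stood at 3.20 and 3.60 in WT Con against 3.05 and 3.33 in KpCKO Con, and at 7.16 and 7.48 in WT M1 against 6.11 and 6.81 in KpCKO M1. After IL-4, *Tor3a* was at 4.50 and 4.52 in WT and 4.63 and 4.44 in KpCKO. It rose with IL-4 by 2.16-fold in WT and 2.54-fold in KpCKO (adjusted p = 0.0142 and 0.0125). The genotypes overlapped in Con and M2 but not in M1, where KpCKO was 1.81-fold lower (adjusted p = 0.0358). *Trim30a*, a brake on Toll-like receptor signalling, fell with IL-4 in WT from 1.95 and 2.22 to 0.81 and 0.80 and was 2.40-fold lower in KpCKO M1 (adjusted p = 0.0416 and 0.0452). *Sp100*, *Ifi35* and *Lgals3bp*, the genes of a nuclear body protein, of an interferon-induced cytosolic protein and of a secreted glycoprotein, rose 4.36-fold, 10.4-fold and 3.33-fold in WT M1. They were lower in KpCKO M1 by 2.06-fold, 2.0-fold and 1.70-fold (adjusted p = 0.0332, 0.0293 and 0.0298). *Xaf1*, which antagonizes an inhibitor of apoptosis, and *Epsti1* had gaps in M1 of −1.24 ± 0.37 and −0.60 ± 0.27 that did not pass the test.

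The genes that carry the signal to these members were read from a list of 26 genes of interferon production and signalling. Of the 25 that could be tested, 17 rose and 4 fell in WT M1, where 34.5% of all genes rose and 28.7% fell. In KpCKO M1, 16 rose and 5 fell, against 24.8% and 25.4% of all genes. In KpCKO against WT, 0 were called in Con (6 at an unadjusted p under 0.05), 4 in M1, all lower (8.58% of all genes), and 0 in M2 (2 at an unadjusted p under 0.05). *Ifnb1*, the gene of IFNβ, was above background on the M1 arrays alone, where it stood at 2.15 and 3.76 in WT and 1.02 and 2.43 in KpCKO. It was thus at least 951-fold higher in M1 than in Con in WT (adjusted p = 7.63e-06) and at least 464-fold higher in KpCKO (adjusted p = 1.74e-05). The *Ifnb1* arrays of the genotypes overlapped, as the KpCKO array of culture 2 lay above the WT array of culture 1. Within a culture KpCKO was lower in M1, with differences of −1.13 in culture 1 and −1.33 in culture 2. Their estimate of −1.23 ± 0.48 did not pass the test (limma, adjusted p = 0.121, unadjusted p = 0.0366). *Irf7*, the factor that amplifies interferon production and is itself an interferon target, stood at −0.35 and 0.30 in WT Con against −2.72 and −1.29 in KpCKO Con, and at 4.51 and 5.73 in WT M1 against 1.91 and 4.52 in KpCKO M1. After IL-4, *Irf7* was at 0.57 and 0.97 in WT and −1.65 and −0.11 in KpCKO. Its gap of −1.90 ± 0.47 in M1 passed the test (adjusted p = 0.0405), and those of −1.97 in Con and −1.65 in M2 did not. *Jak2*, the kinase gene of the IFNγ receptor, was lower in KpCKO M1 by 1.21 ± 0.19 (adjusted p = 0.0118), *Irf8* by 0.54 ± 0.13 and *Ticam1*, the adaptor gene that links Toll-like receptors to IFNβ, by 0.42 ± 0.09 (adjusted p = 0.0342 and 0.0293). *Irf9* fell with IL-4 in WT by 0.65 ± 0.15 (adjusted p = 0.0309), and *Socs1*, a brake on JAK kinases, rose with IL-4 by 6.18 ± 0.19 in WT and 5.90 ± 0.19 in KpCKO (adjusted p = 4.6e-05 and 6.3e-05).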

How the data were processed

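RNA of BMDMs was measured on 12 one-colour Agilent arrays, 6 groups of 2. Per the file headers the authors read the scans with Agilent Feature Extraction 10.7.3.1, and they deposited each spot's background-subtracted intensity, unscaled, with flags for dim, saturated and outlier spots; no spot was saturated. A deposited matrix of log2 values was set against these intensities on 40749 probes and found to hold them relative to the 75th percentile and centred by probe (slopes 0.999623 to 1.00036). The general statement on statistics in the methods names an unpaired t-test.

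Spots flagged as outliers were dropped, spots were averaged by probe, and the log2 value of the 75th percentile was subtracted. Of 41174 probes, 26695 were matched by accession or gene name to a symbol, and the brightest probe stood for its gene. A gene entered the test if 1 group or more had it well above background on each of its arrays (22367 genes). Limma 3.58.1 (R 4.3.3) fitted the 6 groups with culture as a block (5 residual and 1.92 prior degrees of freedom). Benjamini-Hochberg adjustment ran over all genes at a threshold of 0.05, and the procedure was tested on simulated data. Within a culture the Con, M1 and M2 arrays of a genotype came from the same mouse, and the model held no term for the mouse. The genotype gaps under the stimuli are therefore not independent of each other. The pairing by culture comes from the description of the series. Deviations of 22084 genes from their group means correlated between same-culture groups at 0.162 to 0.597 (15 pairs). As the sex of the mice goes with culture, a sex difference would also give such correlations. They therefore cannot show that the genotypes shared a culture. With 2 arrays a group the smallest two-sided p of an exact test is 0.333, and no such test was run; the number of arrays limits the precision.

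A lower bound of a fold takes, for a group not above background, the higher of the probe's signal and the lowest signal above background on each array. Of 34 members 15 had more than 1 probe. In the 46 cases where a called member had another probe, that probe moved in the opposite direction in 0, and differed by at most 0.71 on the log2 scale. Among differences not called, probes of a gene could differ in sign. *Oas3* with IL-4 in WT had −0.98 on the probe used and 0.15 on the other, and the gap of *Ifit2* in M2 was −0.64 and 0.06. Probe sequences were not used here, so cross-hybridization between near copies was not tested. Promoters came from RefSeq. Python 3.11.15, pandas 2.3.3 and matplotlib 3.10.9 made tables and plots. The alternatives were quantile normalization, normexp correction (offset 50), the authors' matrix, other filters, the mean of probes, no culture block, the compared groups alone, the methods' t-test and leaving out each array. The named genes are the listed members, the pathway list and *Keap1* and *Nqo1*; the members and lists were chosen with earlier results of these data known.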

Additional observations from a re-analysis of the deposited data

How the results depend on the processing

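Limits: with 2 arrays a group and 34 genes chosen for a shared role, the number called near the threshold moved with most choices. Some uncalled differences changed sign, and no called difference of a single gene did so under any alternative: of 1442 alternative values for the 103 differences past the test, 1050 stayed past it and 392 did not. Each matched gene was well above background on all 12 arrays, so no filter on dim probes removed a member. Dim levels still occurred, as *Ifi44* stood at −6.21 in KpCKO M2 of culture 1, where the lowest signal above background was −7.02. Over the alternatives the fall of *Oasl1* with IL-4 in WT ran from −2.86 to −1.03, and its gap in Con from −3.09 to −1.62. How far background limited such values was not tested.

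The counts that follow are numbers of the 34 members past the test. Percentages in brackets are the shares of all genes called in either direction. The main counts were 33 (63.2%) for M1 against Con in WT and 33 (50.2%) in KpCKO. For M2 against Con they were 10 (16.8%) in WT and 4 (10.2%) in KpCKO. Between the genotypes they were 5 (2.22%) in Con, 18 (16.0%) in M1 and 0 (1.93%) in M2. The methods' t-test gave, before adjustment, 32 (44.0%) for M1 in WT and 18 (29.3%) for M1 in KpCKO. It gave 17 (21.2%) for M2 in WT and 3 (11.5%) for M2 in KpCKO. For the genotypes it gave 8 (7.25%) in Con, 0 (12.3%) in M1 and 6 (7.84%) in M2. After adjustment it gave 14 (13.2%) for M1 in WT, 0 (0.00897%) for M2 in WT and 0 (0%) in the others. The normexp correction gave 3 for M2 in WT, 2 for M2 in KpCKO, 1 for the genotypes in Con and 2 in M1; no filter on dim probes gave 5, 2, 1 and 7 for these. The filter on all 12 arrays, which tests fewer genes, gave 8 for the genotypes in Con, 25 in M1 and 1 in M2. Quantile normalization gave 3 for the genotypes in M1. Without the replicate block for culture, the pairing the design gives, the counts were 2 for M2 in WT, 1 for M2 in KpCKO and 0 for the genotypes in Con and in M1, and 32 and 31 for M1 in WT and KpCKO. With only the groups compared they were 19 for M2 in WT and 0 for M2 in KpCKO and for the genotypes in Con and in M1. Leaving out 1 array gave 0 to 5 for M2 in WT, 0 to 1 for M2 in KpCKO, and for the genotypes 0 to 2 in Con, 0 to 27 in M1 and 0 in M2. The response differences stayed at 0 under every alternative run. The authors' matrix gave the same count as the main fit in all 9 comparisons, and the cause of the other shifts was not tested.

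The scaling moved the median of all genes in M1 against Con in WT from 0.13 on the log2 scale to −0.11 with quantile normalization and 0.40 with normexp, and that of KpCKO against WT in M1 from −0.09 to 0.01 and −0.22. The median of the members in the latter was −1.25, −0.96 and −1.18, and all 34 stayed below 0.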
